A study of Mus musculus with 4 samples.

Results

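The extracellular matrix is cut by 2 large families of secreted or membrane-bound zinc proteases, the matrix metalloproteinases (MMPs) and the ADAMTS proteases (a disintegrin and metalloproteinase with thrombospondin motifs), and both are held in check by the tissue inhibitors of metalloproteinases (TIMPs). To see how these genes are expressed in the fetal mouse ovary, and how they compare between ovaries with and without Sall1 overexpression, every gene symbol of the count table that begins with Adamts or Mmp followed by a number, and Timp1 to Timp4, was taken. This gave 46 genes of 34682, of which 19 were Adamts, 23 Mmp and 4 Timp genes. ADAMTS-like genes such as Adamtsl1 are not members.

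RNA was sequenced from whole ovaries at embryonic day E13.5, with 2 libraries of Sall1-overexpressing mutant ovaries (mut) and 2 of wild-type ovaries (wt), numbered 1 and 2 in each genotype. The mutants carry a BAC, a large genomic insert cloned in bacteria, in which the promoter and regulatory elements of Wt1 drive the Sall1 coding sequence in gonadal somatic cells. They were made by morula aggregation from female embryonic stem cells (C57BL/6J, or its hybrid with 129) with piggyBac integrations of this BAC. The study names littermates as controls in its results and wild-type CD1 gonads in its methods, and the wild-type count columns carry the name B6, so the strain of the controls is not settled. How many clones or pairs of ovaries went into a library is not given in the sources used here, and p-values measure only the spread between these libraries.

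The libraries held between 11036313 and 17869840 counts, and the mutant libraries were shallower than the wild-type ones. Sall1 had 113 and 96.0 CPM (counts scaled to the size of the library, with TMM normalisation) in mutant ovaries, against 16.2 and 12.6 CPM in wild type. Markers of pre-granulosa cells, such as Foxl2 (27.96 to 46.3 CPM), and of germ cells, such as Dazl (618 to 777 CPM), were present in all 4 libraries. The 5 Sertoli markers were low but counted, with a summed level between 11.3 and 14.4 CPM, most of it from Cyp26b1, Sox9 and Fgf9, while Amh had 3 counts in every library. Wild-type replicate 1 stood apart in skeletal muscle markers, whose summed level was 235 CPM there and between 37.8 and 67.2 CPM in the other libraries. Of this, Tnnt1 gave between 29.9 and 37.95 CPM in every library. The rest were also higher in mutant replicate 1 than in replicate 2 of either genotype, with Actc1 at 12.9 against 0.997 and 2.78 CPM. Erythroid markers summed to 3177 and 3489 CPM in mutant and wild-type replicate 1, against 869 and 1679 CPM in replicate 2. In whole ovaries, fewer cells of a type and less RNA per cell cannot be told apart.

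MMPs are made as inactive precursors, and most act in the space around the cell, where they cut collagens, gelatin and other matrix proteins. MT1-MMP, the product of Mmp14, sits in the plasma membrane and activates the gelatinase MMP2 in a complex that also needs TIMP2. The ADAMTS proteases fall into enzymes that trim procollagens, enzymes that cut large proteoglycans such as versican, and a group whose substrates are less well known, to which ADAMTS19 belongs.

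Of the 46 genes, 32 passed the filter on low counts and were tested, among them 18 of 19 Adamts genes, 10 of 23 Mmp genes and all 4 Timp genes. In the whole table, 44.5% of genes passed. The other 14 genes had at most 11 counts in any library, 11 of them never exceeded 3 counts, and 5 (Mmp1a, Mmp1b, Mmp7, Mmp16 and Mmp20) had 0 counts in all 4 libraries. A count of 3, taken as the limit that a count of 0 allows, corresponds to between 0.17 and 0.272 CPM in these libraries, and it covers counting error only. For the 11 genes that stayed within this limit, expression was absent or too low to measure at this depth. One of these, Mmp10, had 3 and 2 counts in wild-type and 0 in both mutant libraries. Of the other 3, Mmp24 had at most 6 counts in a library, Mmp27 at most 4, and Mmp8 at most 11 (0.623 CPM, wild-type replicate 2).

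The Mmp genes with few or no counts lay together. On chromosome 9, 10 Mmp genes follow each other between 7272514 and 7699585 (NCBIM37), a stretch of 427 kb with 0 other protein-coding genes annotated between them, in the order Mmp13, Mmp12, Mmp1b, Mmp3, Mmp1a, Mmp10, Mmp8, Mmp27, Mmp20 and Mmp7. They include the collagenases Mmp8 and Mmp13, the stromelysins Mmp3 and Mmp10 and the matrilysin Mmp7. All 10 were below the filter in both genotypes, with 33 counts in total over the 4 libraries. The largest value was that of Mmp8 in wild-type replicate 2, at 11 counts or 0.623 CPM. Mmp1a and Mmp1b are close copies of each other, so their counts are less certain. Only 3 untested Mmp genes, Mmp16, Mmp21 and Mmp24, lie elsewhere.

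To show how the promoters of barely counted and expressed genes differ in sequence, the 250 bases before the start are printed for the expressed Mmp14 and Timp2 and for Mmp10 and Mmp13, which had at most 3 counts in any library. They were taken from RefSeq (GRCm38.p6) and are written 5′ to 3′ on the strand of the gene. Capitals mark a TATA box (TATAAA, searched on the strand of the gene), the AP-1 motif (TGANTCA, both strands) and the GC box (GGGCGG, both strands).
Mmp14, chr14:54431348-54431597, plus strand: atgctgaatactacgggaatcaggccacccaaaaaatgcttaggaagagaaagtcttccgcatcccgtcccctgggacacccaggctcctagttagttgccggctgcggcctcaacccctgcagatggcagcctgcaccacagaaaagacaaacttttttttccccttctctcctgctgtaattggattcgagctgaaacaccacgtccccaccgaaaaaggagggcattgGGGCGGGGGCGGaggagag
Timp2, chr11:118355412-118355661, minus strand: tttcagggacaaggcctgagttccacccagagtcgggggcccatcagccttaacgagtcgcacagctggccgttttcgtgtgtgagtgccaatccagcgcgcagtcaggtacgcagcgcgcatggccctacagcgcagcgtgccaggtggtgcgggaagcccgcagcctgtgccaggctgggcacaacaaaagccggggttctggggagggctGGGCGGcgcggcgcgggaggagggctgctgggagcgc
Mmp10, chr9:7502092-7502341, plus strand: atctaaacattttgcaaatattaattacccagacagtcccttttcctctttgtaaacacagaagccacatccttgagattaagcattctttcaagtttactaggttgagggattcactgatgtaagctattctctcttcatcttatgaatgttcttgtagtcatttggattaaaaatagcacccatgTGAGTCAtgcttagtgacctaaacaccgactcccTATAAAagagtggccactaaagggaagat
Mmp13, chr9:7272264-7272513, plus strand: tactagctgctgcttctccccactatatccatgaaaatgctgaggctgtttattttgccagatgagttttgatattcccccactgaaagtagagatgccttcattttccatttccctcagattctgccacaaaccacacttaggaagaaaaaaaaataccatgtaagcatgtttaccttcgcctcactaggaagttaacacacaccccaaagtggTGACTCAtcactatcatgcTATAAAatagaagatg

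The Mmp10 promoter has its TATA box at -29 and its AP-1 motif at -63 relative to the start, and the Mmp13 promoter at -16 and -35. The Mmp14 promoter holds 2 GC boxes, the more distant at -19, and the Timp2 promoter 1, at -37. Promoters on chromosome 18, which holds Adamts19, were left out of the comparison. RefSeq promoters were matched for 32 of the 46 genes, and 13 genes on other chromosomes had no match. Of the 14 promoters of 12 members that did not pass the filter, 8 held a TATA box, 8 the AP-1 motif and 1 the GC box, and their median GC content was 40.4%. Among the 21 promoters of 20 tested members, the corresponding numbers were 1, 0 and 15, with a median GC content of 63.6%. The untested promoters are all of Mmp genes, whereas the tested ones are of all 3 families. For the 7 promoters of 6 tested Mmp genes alone, the numbers were 0, 0 and 5, with a median GC content of 62.0%. Over all 32851 promoters outside chromosome 18 the shares with each motif were 7.59%, 6.75% and 32.7%. These are matches of letters and do not show binding. Most of the untested members matched belong to the 1 cluster on chromosome 9 and are related copies, so that they are not independent cases.

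To compare genes with each other, CPM values were divided by the exon length in kilobases (RPKM). The levels of single libraries are shown in the plot of levels on a log axis. In wild-type ovaries 11 genes reached a mean of at least 10 RPKM, 22 reached 1 RPKM, and 10 of the genes tested stayed below it.

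**Figure D1:**
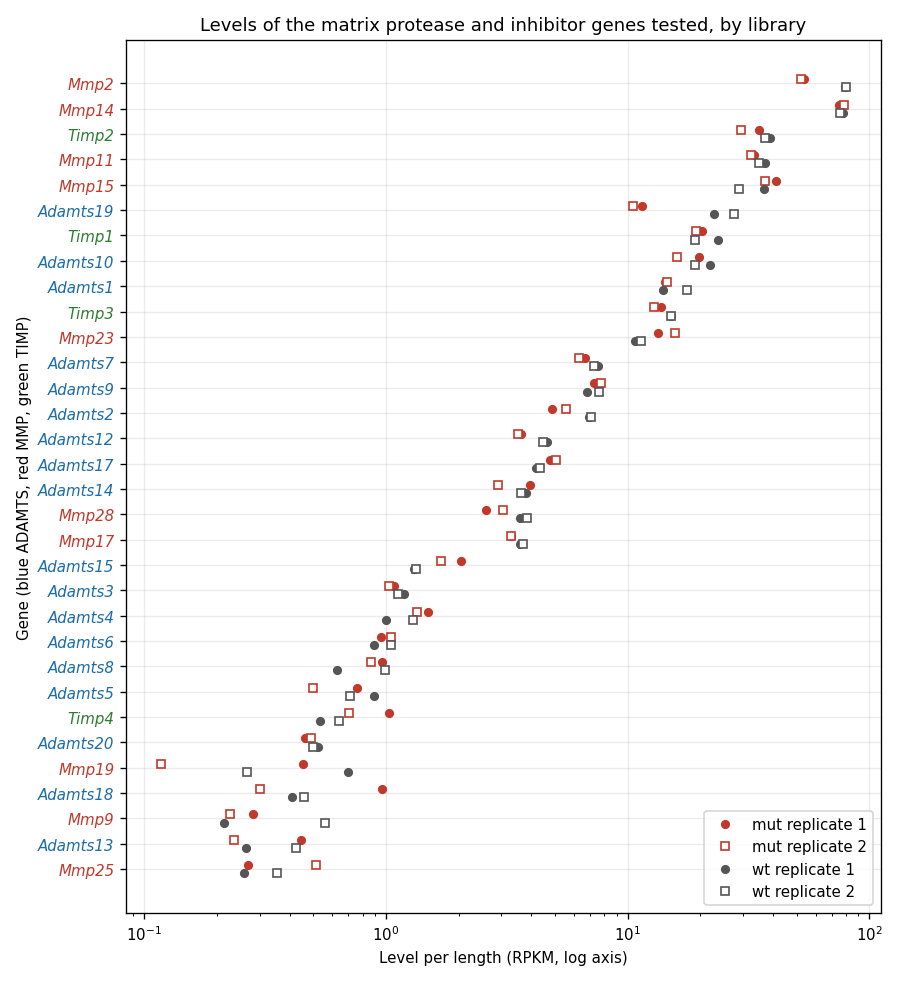
Level per exon length (RPKM, log axis) of the 32 members tested, 1 row per gene, ordered by the wild-type mean. Red symbols are the 2 mut and grey symbols the 2 wt libraries (circles replicate 1, open squares replicate 2), and the colours of the gene names give the family. Mmp2 and Mmp14 lead in wild-type ovaries, and Adamts19 shows the clearest gap between genotypes, with 10.5 and 11.5 RPKM in mut and 22.7 and 27.5 RPKM in wt.

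The MMP transcripts came mostly from a few genes. Mmp2 (gelatinase A) and Mmp14 were the highest of all 46 members, and together with Mmp11 (stromelysin-3) and Mmp15 (MT2-MMP) they made up between 91.5% and 92.2% of the summed MMP level in wild-type ovaries. In the wild-type libraries Mmp2 had 79.3 and 80.2 RPKM and Mmp14 had 77.8 and 75.8 RPKM, so these neighbours in the order were separated by a small gap. Mmp11, which is activated inside the cell before secretion, had 37.1 and 34.8 RPKM, and Mmp15 had 36.6 and 28.8 RPKM. The ranges of Mmp11, Mmp15 and Timp2 (38.8 and 36.8 RPKM) ran into each other. Mmp23, a membrane protein with an unusual architecture, followed at 10.7 and 11.3 RPKM. Mmp9 (gelatinase B) was low, at 0.214 and 0.56 RPKM.

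Among the ADAMTS genes, Adamts19 had the highest level in wild-type ovaries, 22.7 and 27.5 RPKM, which was between 22.8% and 25.8% of the summed ADAMTS level. Its range ran into that of Timp1, the next gene in the order of all members. Adamts10, whose protein binds fibrillin microfibrils, followed at 21.8 and 19.0 RPKM, and Adamts1, a protease that cuts versican and is needed for normal ovulation, at 14.1 and 17.7 RPKM. The COMP-cleaving Adamts7 (7.55 and 7.24 RPKM) and the versican-cleaving Adamts9 (6.76 and 7.62 RPKM) overlapped. These 5 genes together made up between 73.3% and 74.3% of the ADAMTS level. Adamts16 had 1 count in total.

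Timp2 was the leading inhibitor, with between 49.6% and 51.4% of the summed TIMP level in wild-type ovaries. Timp1 had 23.7 and 19.1 RPKM, and Timp3, a matrix-bound inhibitor that also blocks several ADAMTS proteases, had 15.2 and 15.1 RPKM. Timp4 was nearly absent, at 0.534 and 0.64 RPKM, or 13 and 16 counts. Timp1, Timp3 and Timp4 lie inside the synapsin genes Syn1, Syn3 and Syn2 on the opposite strand, and an exon of Timp3 overlaps one of Syn3. The handling of strand is not given in the sources used here, so the Timp3 counts are less certain. The same applies to Adamts7, Adamts9, Mmp19 and Mmp28, tested members that share exonic bases with a gene on the opposite strand. Mmp11 and Mmp17 share exonic bases with a gene on their own strand, so their counts are less certain whatever the handling of strand. In all, 11 members share exonic bases with another gene.
TIMPs made up 17.7% ± 0.81 (SD, n = 2) of the summed level of all members in wild-type ovaries and 17.7% ± 1.0 (SD, n = 2) in mutant ovaries. The MMP share was 57.9% ± 0.73 and 60.0% ± 1.6, and the ADAMTS share 24.4% ± 1.5 and 22.2% ± 0.60 (SD, n = 2 each). For such a value the smallest p that an exact permutation test of 2 against 2 libraries allows is 0.333, and none was run.

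The comparison of mutant with wild-type ovaries asks which of these genes differ in level between the genotypes. The strain of the controls is not settled, and the part of strain in any difference was not tested. The smallest p-values among the members were those of Adamts19 and Mmp2, whose levels in mutant ovaries were 43.8% and 66.5% of wild type. The mean level of Mmp14 differed between genotypes by less than the spread between libraries. Differences were tested in edgeR by quasi-likelihood, adjusted by Benjamini-Hochberg over the 15442 genes tested, at a threshold of 0.05, and 0 of the 32 members passed in either direction. Of all genes, 0.0583% passed (0.013% higher and 0.0453% lower in the mutant ovaries). At an unadjusted p under 0.05 there were 4 members lower and 2 higher, against 5.69% of all genes (2.73% lower and 2.95% higher). DESeq2 with default settings, the tool of the study, called Adamts19 and Mmp2 lower and 0 members higher, while it called 0.472% of the 22242 genes with a count (0.283% lower and 0.189% higher). With replicate numbers added to the fit as a block, edgeR called Adamts19, Mmp2 and Adamts2 lower and 0 members higher, against 2.49% of all genes (1.33% lower and 1.17% higher).

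**Figure D2:**
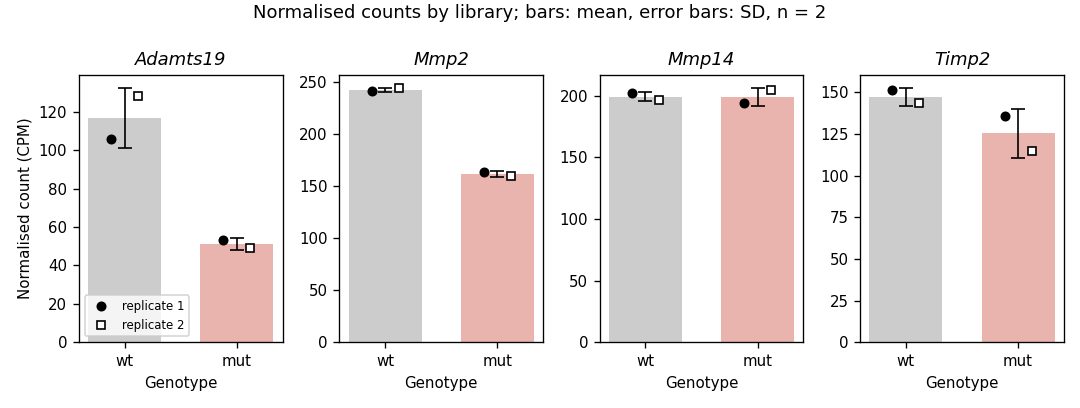
Normalised count (CPM) of Adamts19, Mmp2, Mmp14 and Timp2 by genotype. Bars are means and error bars SD of 2 libraries, circles are replicate 1 and squares replicate 2. For Adamts19 and Mmp2 both mut libraries lie below both wt libraries, with means of 51.3 against 117 CPM and 161 against 242 CPM, whereas the libraries of Mmp14 overlap.

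Adamts19, on chromosome 18, was counted 589 and 738 times in mutant ovaries, and 1822 and 2261 times in wild type. After normalisation these were 53.4 and 49.1 CPM in mutant and 106 and 128 CPM in wild-type ovaries. Both mutant libraries were far below both wild-type libraries. The log2 fold change was -1.19 (standard error 0.13, 95% interval -1.49 to -0.89), the only one among the members beyond 1 in size, and 1.11% of all genes tested had a change at least as low. The adjusted p from edgeR, 0.0532, was just above the threshold. DESeq2 gave a log2 fold change of -1.20 (standard error 0.16) and an adjusted p of 3.72e-11. Over the 10 alternatives the adjusted p ranged from 3.72e-11 to 0.0908 and passed in 9. It did not pass without wild-type replicate 2, the library with the highest Adamts19 level, where the log2 fold change was -1.04.
In the order of levels, Adamts19 went from the first ADAMTS gene in wild-type ovaries to a level below Adamts10 and Adamts1 in mutant ovaries, at 11.5 and 10.5 RPKM. Its level relative to Adamts1 in the same library, which does not depend on scaling between libraries, was 0.805 and 0.722 in mutant ovaries against 1.61 and 1.55 in wild type.

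Mmp2, on chromosome 8 from 95351227 to 95377316 (NCBIM37, plus strand), had 163 and 159 CPM in mutant and 241 and 244 CPM in wild-type ovaries. The genotypes were separated by a gap much larger than the spread within either. The log2 fold change was -0.59 (standard error 0.085, 95% interval -0.79 to -0.39), and edgeR's adjusted p was 0.125. A change at least as low was seen in 4.26% of all genes tested. DESeq2 gave a log2 fold change of -0.59 (standard error 0.12) and an adjusted p of 0.000168. Over the 10 alternatives the adjusted p ranged from 0.000168 to 0.495 and passed in 3, among them the fit without mutant replicate 1 (adjusted p = 0.0347, edgeR). The fold change itself moved little, between -0.61 and -0.57.

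Mmp14, on chromosome 14 from 55050441 to 55060095 (NCBIM37, plus strand), had 194 and 205 CPM in mutant and 202 and 197 CPM in wild-type ovaries. The libraries of the genotypes overlapped. The log2 fold change of -0.00035 had a standard error of 0.087 and an adjusted p of 1.00 (edgeR), and the 95% interval ran from -0.21 to 0.21, so a change of the size measured for Mmp2 lies outside it. Relative to Mmp14 in the same library, the level of Mmp2 per length was 0.719 and 0.665 in mutant ovaries against 1.02 and 1.06 in wild type.

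Timp2, the third partner in the activation of MMP2, had 136 and 115 CPM in mutant and 151 and 143.5 CPM in wild-type ovaries. Both mutant libraries were lower, but the log2 fold change of -0.24 (95% interval -0.49 to 0.023) did not pass (adjusted p = 0.938, edgeR). The ratio of Mmp2 to Timp2 per length was 1.54 and 1.77 in mutant ovaries against 2.04 and 2.18 in wild type. Timp1 and Timp3 had log2 fold changes of -0.12 and -0.19, and Timp4 one of 0.54 with an interval from -0.54 to 1.62. None of the 4 inhibitors passed the test, in edgeR or in DESeq2.

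**Figure D3:**
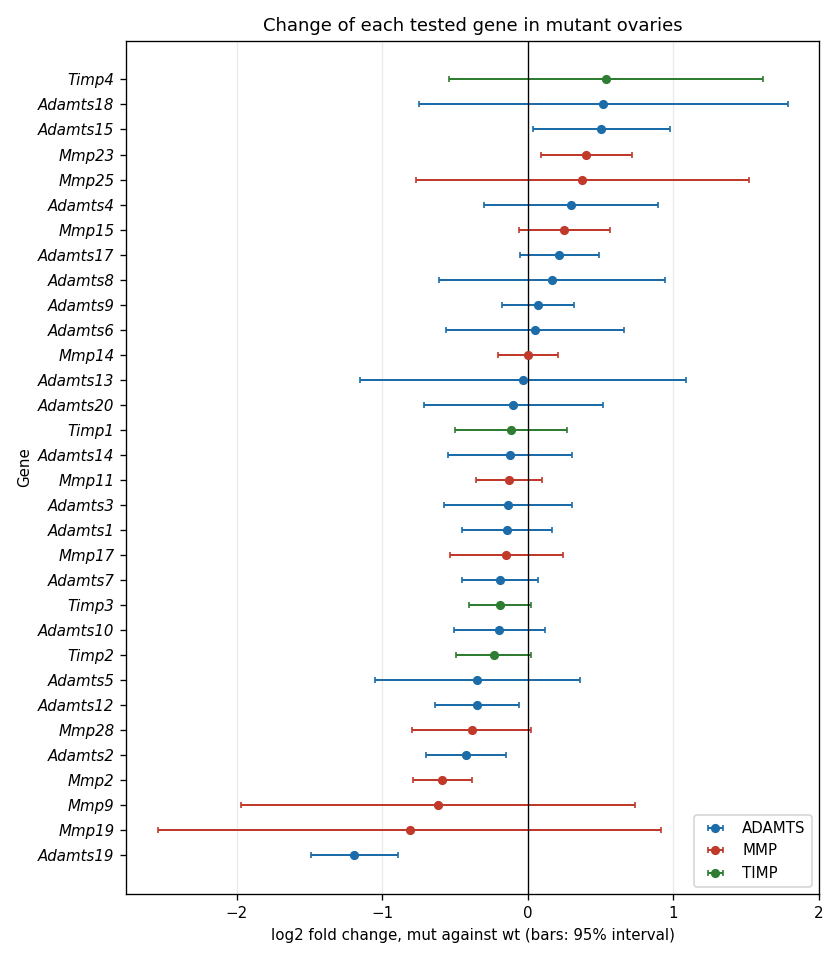
log2 fold change of mut against wt for the 32 members tested, with 95% intervals from edgeR's quasi-likelihood fit, ordered by size and coloured by family. Adamts19 (-1.19) and Mmp2 (-0.59) have narrow intervals below 0, Mmp14 sits at 0, and the wide intervals belong to genes with few counts such as Mmp19, Mmp9 and Adamts18.

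By role, the 3 procollagen N-propeptidases had log2 fold changes below 0, as did 7758 of all 15442 genes tested. Adamts2, the main enzyme that removes the amino-terminal propeptide of fibrillar procollagens, had 45.3 and 52.0 CPM in mutant and 64.6 and 66.0 CPM in wild-type ovaries, without overlap. Its log2 fold change was -0.42 (standard error 0.12, 95% interval -0.70 to -0.15), and the adjusted p was 0.500 in edgeR and 0.506 in DESeq2, with a range from 0.0349 to 1.00 over the 10 alternatives. Adamts3 and Adamts14 were at -0.14 and -0.12. Adamts14 overlapped between genotypes. The COMP-cleaving pair was lower in both mutant libraries than in both wild-type libraries, with -0.35 for Adamts12 and -0.19 for Adamts7. Of all genes tested, 15.1% were lower without overlap in this way. Adamts12 was picked after its values had been seen, as 1 of the 6 members with an unadjusted p under 0.05. Neither gene passed after adjustment.
The 7 proteoglycanases were mixed, with 4 log2 fold changes above 0 and 3 below, from -0.35 to 0.50. The highest was that of Adamts15, at 12.2 and 10.04 CPM in mutant and 7.73 and 7.88 CPM in wild-type ovaries (log2 fold change 0.50, 95% interval 0.032 to 0.98, adjusted p = 0.846, edgeR). Adamts8, its neighbour 20109 bases away on chromosome 9, overlapped between genotypes. Adamts1 and Adamts9 had log2 fold changes of -0.14 and 0.068. Adamts10, in the group of other ADAMTS genes, was at -0.20, and Adamts18 at 0.52, where mutant replicate 1 (5.72 CPM) was above and mutant replicate 2 (1.79 CPM) below both wild-type libraries (2.44 and 2.72 CPM).
Of the other MMPs, Mmp23 was higher in both mutant libraries, at 31.2 and 36.8 CPM against 24.99 and 26.5 CPM in wild type (log2 fold change 0.40, 95% interval 0.088 to 0.72, adjusted p = 0.704, edgeR). Mmp15 was at 178 and 160 CPM against 159 and 125 CPM, with a log2 fold change of 0.25. Mmp11 was at -0.13. The low genes Mmp19, Mmp9 and Mmp25 had log2 fold changes of -0.81, -0.62 and 0.37, all with libraries that overlapped between genotypes. The half-width of the 95% interval had a median of 1.10 for the 10 tested genes below 1 RPKM, against 0.299 for the 11 genes of at least 10 RPKM, so only large changes of the former could have been seen.

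Over the 32 members tested, the median log2 fold change was -0.12, against -0.00088 over all genes tested, with 21 values below and 11 above 0. The medians of the ADAMTS, MMP and TIMP genes were -0.11, -0.14 and -0.15. The genotypes did not overlap in 18 members, of which 12 were lower and 6 higher in the mutant libraries, while 30.9% of all genes tested did not overlap (15.1% lower, 15.8% higher).
Differences were also taken within the same-numbered libraries, mutant replicate 1 against wild-type replicate 1 and mutant replicate 2 against wild-type replicate 2, as log2 CPM, computed with 2 as prior count. The labels do not say that libraries of one number share a litter or a day. In both pairs 15 members were lower and 8 higher in the mutant, and 9 went in opposite directions, while 27.3% of all genes tested were lower and 26.5% higher in both. Adamts19 differed by -0.98 and -1.38, Mmp2 by -0.56 and -0.61, and Mmp14 by -0.057 and 0.055. Adamts2 differed by -0.51 and -0.34 and Mmp23 by 0.32 and 0.47. The median of the members was -0.090 in the first pair and -0.20 in the second.

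**Figure D4:**
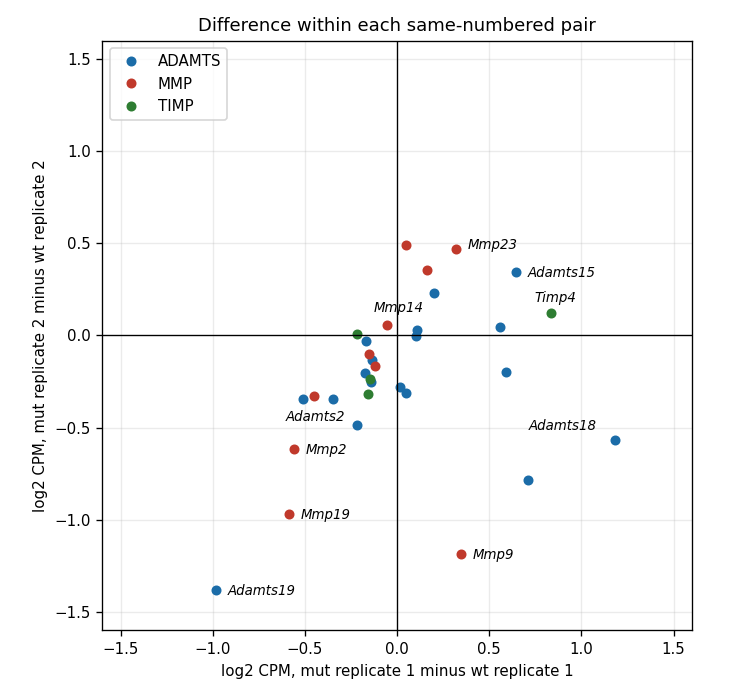
Difference in log2 CPM between mut and wt libraries of the same replicate number for the 32 members tested, replicate 1 on the x axis and replicate 2 on the y axis, coloured by family. Adamts19 (-0.98 and -1.38) and Mmp2 (-0.56 and -0.61) lie in the lower left quadrant, Mmp14 (-0.057 and 0.055) at the centre, and Adamts18 (1.19 and -0.57) and Mmp9 (0.35 and -1.19) differ in sign between the pairs.

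Several markers of interstitial and mesenchymal cells were also lower in the mutant ovaries. Of 8 listed genes, all detected, 7 had log2 fold changes below 0, and DESeq2 called 3 of them lower, Tcf21, Pdgfra and Lum, with log2 fold changes of -1.10, -0.55 and -0.79 in edgeR, where 0 passed. Col1a1 was at 0.15. The summed level of the list overlapped between genotypes, with 2020 and 1307 CPM in mutant and 1903 and 2008 CPM in wild-type ovaries. Most of this sum came from Col3a1 (668.5 to 1095 CPM) and Col1a1 (313.5 to 554 CPM), which overlapped between genotypes. Of the 8 genes, 5 were lower in the mutant libraries without overlap and 3 overlapped. Over all genes tested, 15.1% were lower without overlap. The 7 pre-granulosa markers had 704 and 678 CPM in total against 597 and 612 CPM, and 6 log2 fold changes were above 0, but those of Wnt4 and Runx1, 0.0088 and 0.038, came with overlapping libraries. DESeq2 called Lgr5 higher and Bmp2 lower, with log2 fold changes of 0.61 and -0.80 in edgeR, where 0 passed. The part of these cell types in the lower Adamts19 and Mmp2 was not tested. Without wild-type replicate 1, the library highest in muscle markers, the log2 fold changes were -1.32 for Adamts19 and -0.60 for Mmp2.

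The genes that act with these proteases were followed with a list of 62 partners, of which 56 were tested. They comprise other inhibitors, ADAMTS-like proteins, activating proteases, procollagen-processing astacins, the plasminogen system, ADAM sheddases, and substrates. In edgeR and in DESeq2 0 partners passed, and at an unadjusted p under 0.05 edgeR gave 4 higher and 7 lower, while 5.69% of all genes tested were under it (2.95% higher and 2.73% lower). Their median log2 fold change was -0.049. Reck, a membrane-anchored inhibitor of MMP2, MMP9 and MMP14, had 63.1 and 61.4 CPM in mutant and 65.9 and 65.5 CPM in wild-type ovaries. Versican (Vcan), the large proteoglycan cut by several ADAMTS proteases, had 99.4 and 73.3 CPM against 62.4 and 66.2 CPM, a log2 fold change of 0.42 that did not pass (adjusted p = 0.774, edgeR). Bmp1, the procollagen C-proteinase, was low, at 2.27 and 3.92 CPM against 2.21 and 3.51 CPM.
Among the partners with lower values in both mutant libraries were Papln, an ADAMTS-related matrix protein (log2 fold change -0.54), the proprotein convertase Pcsk5 (-0.55), the tissue plasminogen activator Plat (-0.38) and Vwf, the substrate of ADAMTS13 (-0.90). These 4 are named because edgeR with the replicate block called them lower, with adjusted p-values between 0.00869 and 0.0323, whereas those without the block lay between 0.409 and 0.459. The fit with the block called 4 of 56 partners lower, and 1.33% of all genes tested. In all, 22 of the 56 partners tested were lower and 9 higher in both same-numbered pairs, against 27.3% and 26.5% of all genes tested. Of the 4 genes of the plasminogen system 2 were lower without overlap and 2 overlapped between genotypes, while 15.1% of all genes tested were lower without overlap. Of the 4 activating proteases 2 had log2 fold changes above and 2 below 0.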

How the data were processed

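RNA from mouse ovaries was sequenced on Illumina HiSeq. The authors aligned reads with STAR 2.6.1d (mm9, per the submitters' processing notes), used summarizeOverlaps to count reads per gene, and deposited these raw counts for each library without normalising them. All 4 columns were matched to libraries by genotype and replicate number, and 0 columns were unused. The annotation and strand handling of the counts are not given in the sources used here.

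Counts were analysed in R 4.3.3 with edgeR 4.0.16 (TMM, filterByExpr, quasi-likelihood F-test, Benjamini-Hochberg adjustment over 15442 genes, genotype as the only factor). The standard error was the size of the log2 fold change over the square root of F. DESeq2 1.42.0 and the other alternatives are given in the closing section. Libraries held 11036313 to 17869840 counts. Libraries of one genotype differed by more than sampling noise (chi-square per degree of freedom 9.40 and 10.7) and were counted separately. RPKM values used the union of exons of GENCODE M1 (NCBIM37), matched by symbol for 46 of 46 members. The code of the fits was checked on simulated counts. These were drawn independently for each library, without the shared deviation of same-numbered libraries, so they cannot decide between fits with and without the replicate block.

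Named genes were Adamts19, Mmp2, Mmp14, the Timp genes, members called by edgeR, edgeR with a replicate block or DESeq2, the 5 highest Adamts and Mmp genes by level, the 5 largest changes in each direction, the partners called likewise, and Reck, Vcan and Bmp1. The members and lists were chosen with earlier results of these data known.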

Additional observations from a re-analysis of the deposited data

How the results depend on the processing

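The number of members called lower, 0 in edgeR's test, was 1 with RLE size factors, 1 with upper-quartile size factors, 1 with no filter, 1 with at least 10 counts in every library, 2 with DESeq2 and 3 with the replicate block. With each library left out it ranged from 0 to 2, with 2 without mutant replicate 1, 1 without mutant replicate 2, 1 without wild-type replicate 1 and 0 without wild-type replicate 2. A fit without 1 library assumes that the lone library of a genotype varies like the other genotype. No member was called higher under any of these 10 alternatives. Over all genes, 2 were called higher and 7 lower, and these became 2 and 8 with RLE and with upper-quartile size factors. The numbers were 9 and 19 with no filter, and 5 and 14 with at least 10 counts in every library. With DESeq2 these numbers were 42 and 63, and with the replicate block 180 and 205. With each library left out they ranged from 1 to 42 and from 3 to 88, in total 130 without mutant replicate 1, 38 without mutant replicate 2 and 4 without wild-type replicate 2. Partners called lower went from 0 to 4 with the replicate block (Papln, Pcsk5, Plat and Vwf), and leaving out a library gave from 0 to 1, the 1 being without mutant replicate 1. The cause of these differences was not tested.

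The log2 fold change of Adamts19, -1.19 without passing, passed at -1.19 with RLE size factors (adjusted p = 0.0491, edgeR), at -1.20 with upper-quartile size factors (0.0485), at -1.20 with no filter (0.0071), at -1.19 with at least 10 counts (0.027), at -1.20 with DESeq2 and at -1.19 with the replicate block (adjusted p = 1.05e-05, edgeR), and ranged from -1.32 to -1.04 with each library left out. That of Mmp2, -0.59, passed at -0.59 with DESeq2 and at -0.59 with the replicate block (adjusted p = 0.000635, edgeR), and ranged from -0.61 to -0.57 with each library left out. Mmp14 never passed, and its value, -0.00035, ranged from -0.040 to 0.035. With the replicate block, Adamts2 passed too (-0.43, adjusted p = 0.0349, edgeR). Libraries of the same number deviated together from their genotype means (correlation over genes 0.481), and the common dispersion was 0.021 without and 0.00639 with the block. The names of the count columns give same-numbered libraries neighbouring library numbers, but no source used here says that they share a litter, day or batch, so whether they are pairs is not settled.

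Of the other genes named, none of which passed in edgeR's test except Sall1, 235 of the values under alternatives kept direction and side of the threshold, 5 passed with the replicate block and 9 changed sign, each with 1 library left out. The ranges with each library left out were -0.25 to 0.049 for Timp1, -0.295 to 0.045 for Adamts1, -0.014 to 0.17 for Adamts9, -2.02 to 0.042 for Mmp19, -1.15 to 0.25 for Mmp9, -0.185 to 0.74 for Mmp25, -0.52 to 1.14 for Adamts18 and -0.34 to 0.51 for Bmp1. Without a change of sign, but by over 1.5 times, the values of Timp2 (-0.36 to -0.12), Timp4 (0.26 to 0.80), Adamts10 (-0.36 to -0.049), Mmp11 (-0.16 to -0.081), Mmp15 (0.0996 to 0.43) and Vcan (0.19 to 0.63) also moved. The number of members past the filter, 32, was 41 with no filter and 31 with at least 10 counts. The TIMP share of the summed level, 17.7% in both genotypes, was 18.7% in mutant and 18.8% in wild-type ovaries with the longest transcript as length, and 22.8% and 23.4% when summed over MMP and TIMP genes only. Depth limits what can be said of the 14 members that were not tested.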
